A study of Homo sapiens with 7 samples.

Results

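RNA was described here for 10 genes, namely 9 that encode neuropeptides and 1 that encodes a neuropeptide receptor, in NGP, a human neuroblastoma cell line, and in ARID1A-mutant lines made from it. The 10 genes were ADCYAP1, which encodes PACAP, its receptor gene ADCYAP1R1, and the peptide genes VIP, NPY, NMU, GAL, SST, TAC1, CARTPT and PENK. They were taken by name from the 28517 named entries of the deposited tables and were chosen by their counts and RPKM values in these same libraries, so their own differences between groups are given as a description without a test. ARID1A encodes a subunit of BAF, a complex that moves nucleosomes and opens enhancers. Control cells, ARID1A-/- line 1 and ARID1A-/- line 2 had 2 libraries each, and an ARID1A+/- line had 1, which made 7. All were grown in RPMI 1640 with fetal bovine serum, antibiotics and puromycin and received no treatment that the labels name. The first library of the control and of each ARID1A-/- line came from the SMARTer kit for low input, and the repeats and the ARID1A+/- library came from the KAPA HyperPrep kit. The labels do not say how the lines were made, whether each grew from 1 cell, or whether its 2 libraries were grown as separate cultures. The spread between libraries may therefore be technical, and with 1 control line the genotype cannot be told apart from other differences between the lines.

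Neuropeptides are cut from larger precursor proteins in the secretory pathway, stored in dense core vesicles and released to act on receptors coupled to G proteins. PACAP is a transmitter of the preganglionic nerves of the adrenal medulla. Through its receptor PAC1 it raises cyclic AMP, which activates protein kinase A and the transcription factor CREB. NPY is stored with noradrenaline in sympathetic nerves and is secreted by many neuroblastomas, and VIP and galanin are made by subsets of sympathetic neurons and by some neuroblastic tumours.

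Between 24445301 and 43644361 reads were counted in a library, with the 3 SMARTer libraries above the 4 KAPA libraries. ARID1A itself had an RPKM (a count divided by gene length and sequencing depth) of 22.3 and 22.0 in the control libraries, SMARTer first, 16.7 and 17.2 in line 1, 14.2 and 13.8 in line 2, with 19.9 in the ARID1A+/- library, so the mutant lines still held ARID1A mRNA. The 18 sympathetic and chromaffin marker genes summed to an RPKM of between 999 and 1490 in every library. TH, the rate-limiting enzyme of catecholamine synthesis, was at or below an RPKM of 0.456 in all 7 libraries. Markers of immune and endothelial cells summed to between 3.57 and 5.21, most of it from CD68. The 9 fibroblast markers summed to 100 and 101 in the control libraries, 224 and 246 in line 1, 65.3 and 61.9 in line 2, with 111 in the ARID1A+/- library, and their part in the results below was not tested.

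The DNA before the start sites of 5 of the peptide genes is shown because these genes behaved differently. ADCYAP1 and VIP were higher in every mutant line than in control cells, and SST was almost unread. NPY and NMU were lower in both ARID1A-/- lines, and in the ARID1A+/- library NPY was higher and NMU lower than in the control. Each stretch shown is the 250 bases before the start site on the gene's own strand. It is from RefSeq on GRCh38.p14, a later build than the hg19 to which the authors aligned. The stretches are chr18:904621-904870 (+ strand, the first of 2 start sites) for ADCYAP1, chr6:152750547-152750796 (+ strand) for VIP, chr7:24283940-24284189 (+ strand) for NPY, chr4:55636794-55637043 (- strand) for NMU and chr3:187670395-187670644 (- strand) for SST. Capitals mark the cyclic AMP response element TGACGTCA or its core TGACG on either strand.
ADCYAP1: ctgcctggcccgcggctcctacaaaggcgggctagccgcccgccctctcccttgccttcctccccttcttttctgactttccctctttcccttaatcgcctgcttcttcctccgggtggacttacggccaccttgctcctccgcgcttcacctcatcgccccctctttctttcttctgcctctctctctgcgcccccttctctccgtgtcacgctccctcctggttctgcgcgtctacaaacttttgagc
VIP: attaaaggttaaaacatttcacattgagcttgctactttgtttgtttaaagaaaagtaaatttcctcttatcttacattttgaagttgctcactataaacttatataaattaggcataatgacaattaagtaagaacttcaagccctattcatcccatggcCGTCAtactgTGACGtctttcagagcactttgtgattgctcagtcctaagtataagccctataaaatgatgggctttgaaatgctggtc
NPY: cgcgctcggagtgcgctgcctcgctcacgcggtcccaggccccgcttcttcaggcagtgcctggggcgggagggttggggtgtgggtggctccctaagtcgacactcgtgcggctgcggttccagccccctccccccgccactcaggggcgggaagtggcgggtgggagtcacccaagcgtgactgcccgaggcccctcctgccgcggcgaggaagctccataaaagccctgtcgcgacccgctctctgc
NMU: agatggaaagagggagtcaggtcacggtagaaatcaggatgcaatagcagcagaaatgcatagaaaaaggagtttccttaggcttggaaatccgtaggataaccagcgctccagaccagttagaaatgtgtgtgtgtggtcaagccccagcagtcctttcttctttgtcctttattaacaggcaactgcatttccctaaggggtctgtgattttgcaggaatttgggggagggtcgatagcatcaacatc
SST: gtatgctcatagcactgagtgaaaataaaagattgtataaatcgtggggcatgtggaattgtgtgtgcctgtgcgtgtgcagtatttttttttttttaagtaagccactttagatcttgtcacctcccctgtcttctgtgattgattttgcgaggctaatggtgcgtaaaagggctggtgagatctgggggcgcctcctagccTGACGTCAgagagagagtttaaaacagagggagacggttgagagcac

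Windows from 250 bases before to 50 bases after the start were found for 8 of the 10 genes and were searched for 3 motifs. The complete element TGACGTCA, which reads the same on both strands, is the site that CREB binds. It was in 649 of 35116 RefSeq windows (1.85%), and among the 8 genes in SST, at base -47 from the start, and in CARTPT, at base -143. The core TGACG, also read as CGTCA on the other strand and contained in every complete element, was in 24.6% of the windows. VIP held it at bases -89 and -79 in opposite directions, the arrangement known as the cyclic AMP response element of this gene. ADCYAP1 had it only at its second start site, at base -238, and TAC1 had it at base -197. No match was found in the windows of NPY, NMU or ADCYAP1R1. The TATA box TATAAA, searched on the gene's strand only, was in 7.33% of the windows and in those of VIP, SST and CARTPT. A match is a string of letters here and not a measured site, and SST and CARTPT, with the complete element, had 1 and 2 counts over all 7 libraries.

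PACAP RNA was nearly absent from control cells and present in all 3 mutant lines. ADCYAP1 had 20 and 2 counts in the control libraries, SMARTer first, 1825 and 170 in line 1, 3063 and 1687 in line 2, with 1841 in the ARID1A+/- library. In RPKM these were 0.136 and 0.0242 in the control, 13.1 and 1.58 in line 1, 22.3 and 17.3 in line 2, with 16.5 in the ARID1A+/- library. Every mutant library was above both control libraries, and the line 1 KAPA library was the lowest of the 5. The fitted log2 fold change against control, from a model with a term for the kit, was 6.21 ± 0.86 (standard error) in line 1, 8.22 ± 0.87 in line 2 and 7.21 ± 0.83 for the mean of both. Within each kit the ratio of RPKM to the control was 96.2 with SMARTer and 65.2 with KAPA in line 1, and 164 and 714 in line 2. The size of these ratios rests on few control reads: on summed counts scaled by depth, both ARID1A-/- lines together were 143-fold above control (95% exact interval 94.5 to 229), an interval that covers counting error only. Without the control SMARTer library the fitted difference was 7.86, and without the SMARTer library of line 2 or of line 1 it was 8.24 or 6.08. In bulk RNA, more cells with the transcript and more transcript per cell cannot be told apart.

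The gene lies on the + strand of chromosome 18 in GRCh38, where the GENCODE 29 annotation places 2 genes of the opposite strand over it. Neither has an entry in the deposited tables, and whether reads were counted by strand is not given in the sources used here, so reads of these genes cannot be told apart from those of ADCYAP1. PENK, on chromosome 8, has 1 such antisense gene, and the other 8 have none.

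VIP, a peptide of the same family as PACAP, was far lower and also stood above the control in every mutant library. It had 1 and 0 counts in the control libraries, 8 and 38 in line 1, 9 and 36 in line 2, with 24 in the ARID1A+/- library, or an RPKM of at most 0.785. Its mean RPKM over the 6 control and ARID1A-/- libraries was 0.302, below the minimum of 0.5 that a gene needed for the fit. On summed counts the ARID1A-/- lines were 42.5-fold above control (interval 7.44 to 1698), and the ARID1A+/- library was at least 6.15-fold higher than the control KAPA library, taken at a floor of 3 counts. VIP and ADCYAP1 differed between the kits in opposite directions. On counts scaled by depth VIP was 5.32-fold (2.45 to 13.2) and 5.21-fold (2.46 to 12.3) higher with KAPA than with SMARTer in lines 1 and 2, whereas ADCYAP1 was 9.58-fold (8.18 to 11.3) and 1.39-fold (1.31 to 1.48) higher with SMARTer.

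**Figure D1:**
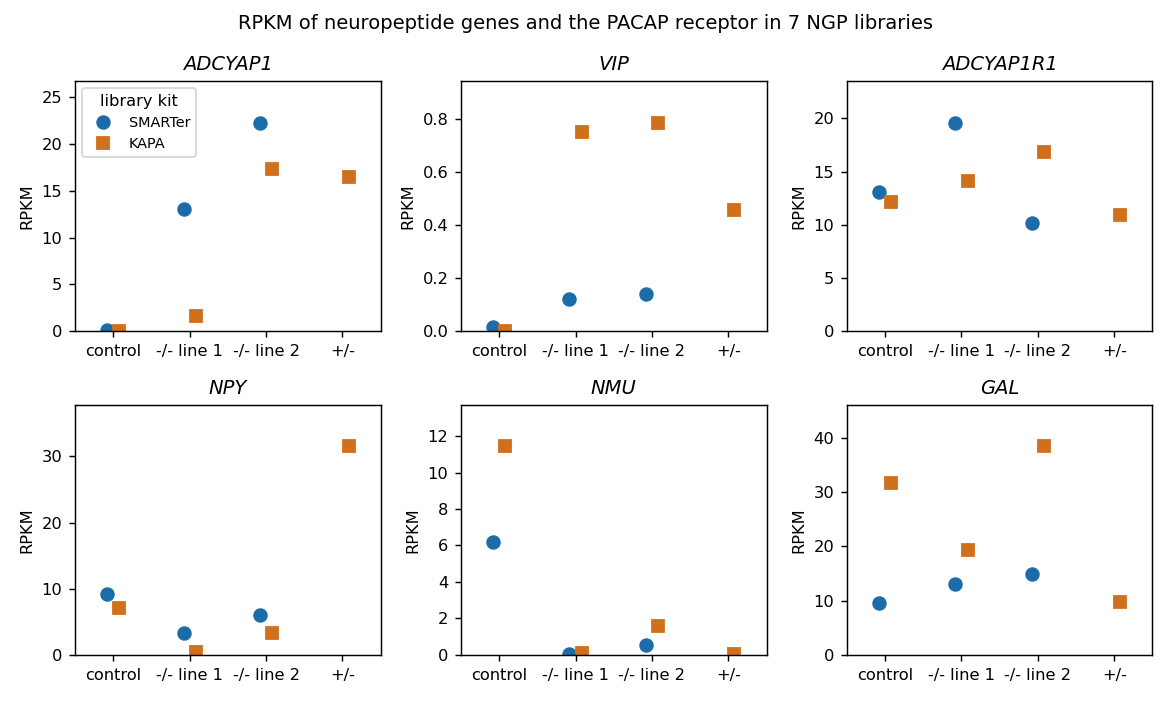
RPKM (y axis, a separate linear scale in each panel) of the 6 genes with more than 2 counts in all, in the control, ARID1A-/- line 1, ARID1A-/- line 2 and ARID1A+/- libraries (x axis). Each point is 1 library, with circles for SMARTer and squares for KAPA; ADCYAP1 and VIP lie near 0 only in the control, NMU is highest in the control, and NPY is highest in the ARID1A+/- library at 31.5.

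ADCYAP1R1, the gene of the PACAP receptor PAC1, was read in every library. Its RPKM stood at 13.1 and 12.1 in the control libraries, 19.6 and 14.1 in line 1, 10.2 and 16.9 in line 2, with 10.9 in the ARID1A+/- library. The groups overlapped, since line 2 held both a lower and a higher value than the control libraries. The fitted log2 fold change was 0.43 ± 0.28 in line 1, 0.07 ± 0.28 in line 2 and 0.25 ± 0.24 for both lines. The sign for both lines together turned when single libraries were left out, with -0.060 without the KAPA library of line 2 and 0.48 without its SMARTer library. In RPKM the ligand gene ADCYAP1 was below the receptor gene in both libraries of the control and of line 1, and above it in both libraries of line 2 and in the ARID1A+/- library.

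NPY, the sympathetic peptide, differed in direction between the homozygous and the heterozygous lines. It had an RPKM of 9.21 and 7.09 in the control libraries (225 and 97 counts), 3.36 and 0.504 in line 1 (78 and 9 counts), 6.09 and 3.34 in line 2 (139 and 54 counts), with 31.5 in the ARID1A+/- library (583 counts). All 4 ARID1A-/- libraries were below both control libraries, and the ARID1A+/- library was above all others. The fitted log2 fold change was -2.27 ± 0.52 in line 1, -0.90 ± 0.48 in line 2 and -1.58 ± 0.41 for both. The ARID1A+/- library was 4.62-fold above the control KAPA library (3.72 to 5.79 by counting error) with no replicate to set beside it. With single libraries left out, the difference for both lines lay between -2.28 and -1.03.

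NMU, which encodes neuromedin U, a peptide that acts on gut and hypothalamus, was the peptide gene most reduced in the mutants. Its counts were 221 and 228 in the control libraries, 2 and 3 in line 1, 18 and 38 in line 2, with 1 in the ARID1A+/- library. The corresponding RPKM was 6.21 and 11.4, then 0.0592 and 0.115, then 0.542 and 1.61, and 0.0371. The groups did not overlap, and line 2 kept more NMU than line 1 with either kit. The fitted log2 fold change was -6.62 ± 0.43 in line 1, -3.17 ± 0.32 in line 2 and -4.89 ± 0.29 for both, and between the lines it was -3.45 ± 0.50 (line 1 minus line 2). On summed counts line 1 was 97.1-fold below control (41.3 to 300.5) and line 2 was 8.49-fold below (6.42 to 11.4). The ARID1A+/- library was 296-fold below the control KAPA library (52.7 to 11756, from 1 count). With single libraries left out, the difference for both lines lay between -5.24 and -4.64.

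GAL, the galanin gene, was the most abundant of the 9 peptide genes by mean RPKM and did not separate the groups. Its RPKM stood at 9.54 and 31.6 in the control libraries, 13.1 and 19.4 in line 1, 14.8 and 38.4 in line 2, with 9.73 in the ARID1A+/- library. In each of the 3 groups with both kits the KAPA library was the higher, and the ARID1A+/- library was below the other 3 KAPA libraries. The fitted log2 fold change was -0.11 ± 0.29 in line 1, 0.40 ± 0.28 in line 2 and 0.15 ± 0.25 for both.

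The other 4 peptide genes were at the limit of detection. SST, which encodes somatostatin, had 1 count, in the ARID1A+/- library. CARTPT had 1 count in each of the ARID1A-/- KAPA libraries, and PENK, the precursor of the enkephalins, had 1 count, in the ARID1A+/- library. TAC1, the precursor of substance P, had 0 counts in all 7 libraries, which allows an RPKM of up to 0.0103 at their summed depth, by counting error alone. An entry can also stand at 0 for other reasons, as PRKAR2A, a subunit of protein kinase A that most cells make, was listed at 0 in all 7 libraries too.

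Of the 10 genes, 5 passed the minimum of a mean RPKM of 0.5 (ADCYAP1, ADCYAP1R1, NPY, NMU and GAL). Because these contrasts were known when the genes were chosen, the calls describe the values and are not a test of them. The counts of calls are given only beside the share of all 14711 genes. ADCYAP1 also passed the minimum only through the ARID1A-/- libraries, as its mean RPKM in the control was 0.0800. For both ARID1A-/- lines against control the fit called 3 of the 5, against 14.2% of all genes: ADCYAP1 was called higher, as were 4.64%, and NMU and NPY lower, as were 9.57%. In line 1 it called the same 3 (13.0% of all genes), with 4.75% of all genes higher and 8.27% lower. In line 2 it called 2, ADCYAP1 higher and NMU lower (14.0% of all genes, 5.47% higher and 8.52% lower). Between the lines it called 1, NMU, lower in line 1 (12.8% of all genes, 5.71% higher and 7.10% lower in line 1), and ADCYAP1, with -2.01 ± 0.60, did not pass. The call of NPY over both lines was lost with RLE scaling (-1.59), on limma's log2(RPKM + 0.1) scale (-1.66) and without the kit term (-1.41). It was also lost without either control library (-2.25 and -1.03) or either library of line 2 (-1.51 and -1.73). That of ADCYAP1 was lost without the control SMARTer library (7.86). In line 1 the calls of ADCYAP1 and NPY were lost without the kit term and without the control SMARTer library. That of NPY in line 1 was also lost without the control KAPA library. In line 2 that of ADCYAP1 was lost without the control SMARTer library. Between the lines that of NMU was lost without the kit term and on limma's log2(RPKM + 1) scale.

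The makeup of the peptide RNA, as the RPKM summed over the 9 peptide genes, therefore differed between the lines. In the control SMARTer library the sum was 25.1, of which GAL made 38.0%, NPY 36.7%, NMU 24.7% and ADCYAP1 0.541%. In the control KAPA library the sum was 50.1, with 63.0% from GAL, 14.1% from NPY, 22.8% from NMU and 0.0483% from ADCYAP1. ADCYAP1 made 44.0% and 7.06% of the sum in line 1, 50.8% and 28.1% in line 2, with 28.3% in the ARID1A+/- library. NMU made at most 2.62% in any mutant library. The largest share was that of GAL in both libraries of line 1 (44.1% and 86.7%), that of ADCYAP1 in the line 2 SMARTer library, that of GAL in the line 2 KAPA library (62.5%) and that of NPY in the ARID1A+/- library (54.1%).

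**Figure D2:**
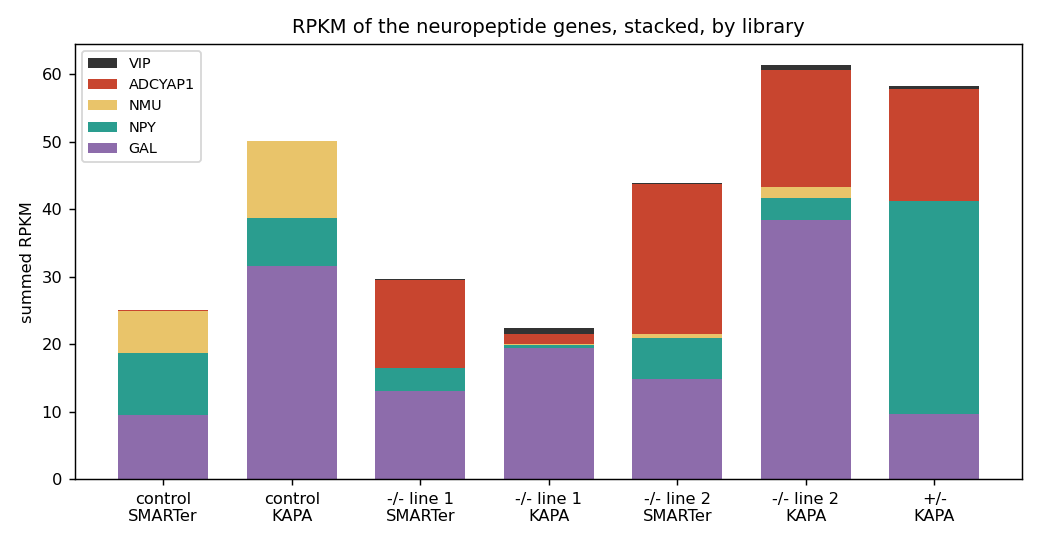
RPKM of the peptide genes stacked in 1 bar for each of the 7 libraries (x axis), with the summed RPKM on the y axis from 0 and a colour for each gene; SST, TAC1, CARTPT and PENK are too low to draw. ADCYAP1 is visible in the mutant bars alone and NMU mainly in the control bars, and NPY is the largest block in the ARID1A+/- bar.

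The ARID1A+/- library was compared with the control library of the same kit, as a log2 ratio of CPM (counts scaled to a common library total) with a prior count of 0.5. With 1 library on each side there is no test. ADCYAP1 stood at 9.09, the highest of the 14711 genes, which were kept by their level in the other 6 libraries, and also of the 28517 entries before that filter. Among the 14711 genes NPY stood at 2.15, where 85 were at least as high, and NMU at -7.69, where 20 were at least as low. GAL was at -1.70 and ADCYAP1R1 at -0.15, beside a median over all genes of -0.05. Past 2-fold were 4 of the 5 measured genes and 10.1% of all genes, 2 of the 5 and 3.87% of all genes upwards and 2 of the 5 and 6.24% downwards. Since GAL differs by kit, the choice of the control matters for it: against the mean of both control libraries its ratio was -0.83, while ADCYAP1 was at 7.99, NPY at 1.96 and NMU at -7.24.

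**Figure D3:**
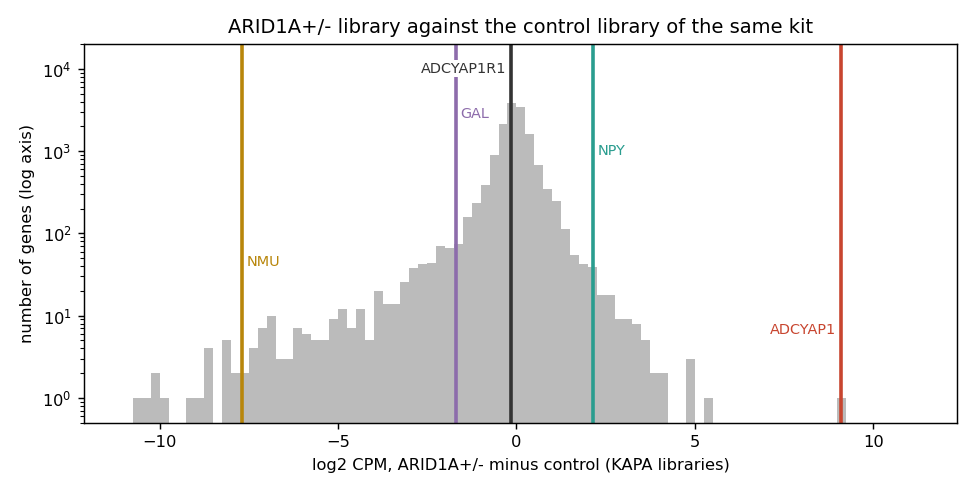
Histogram of the log2 ratio of CPM between the ARID1A+/- library and the control KAPA library (x axis) over 14711 genes, with the number of genes on a log y axis. Coloured vertical lines mark the 5 measured genes: ADCYAP1 is at the right end at 9.09, NPY at 2.15, ADCYAP1R1 at -0.15, GAL at -1.70 and NMU near the left end at -7.69.

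The kits differed as much for some of these genes as the lines did. In line 1 the SMARTer library was above the KAPA library by 3.04 on the log2 scale for ADCYAP1 (8.24-fold in CPM), and 31 of 14711 genes (0.211%) were at least as far apart. For NPY in line 1 the gap was 2.67, with 65 genes at least as far. In the control the gaps were 2.20 for ADCYAP1, on 22 counts, and 0.37 for NPY, and in line 2 they were 0.37 and 0.86. ADCYAP1 and NPY were higher with SMARTer in all 3 groups, as were 16.7% of genes, and NMU and GAL were higher with KAPA in all 3, as were 42.8% of genes. ADCYAP1R1 was higher with SMARTer in the control and line 1 and with KAPA in line 2. The kit is balanced over the 3 fitted groups, and ADCYAP1, NPY and NMU kept their direction against control within each kit. GAL in line 1 and ADCYAP1R1 in line 2 did not. Both ARID1A-/- lines were set against the same control library of each kit. How many of all genes kept their direction, or did not overlap between groups, was not counted. Whether the gap of ADCYAP1 and NPY in line 1 belongs to the kit, to the culture or to the RNA was not tested.

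**Figure D4:**
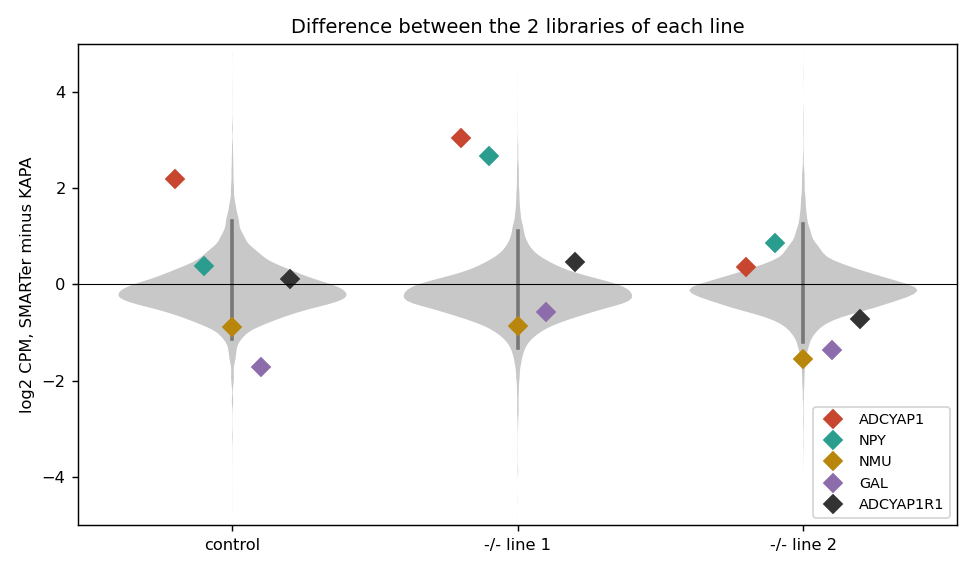
Difference between the SMARTer and the KAPA library of the same line in log2 CPM (y axis) for the control, ARID1A-/- line 1 and ARID1A-/- line 2 (x axis). Grey shapes show the distribution over 14711 genes with a bar over the central 95% of them, and diamonds show the 5 measured genes; ADCYAP1 at 3.04 and NPY at 2.67 lie above the bar in line 1.

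The genes around these peptides were read from lists of receptors, processing enzymes and signalling genes, tested with edgeR's quasi-likelihood test and the Benjamini-Hochberg adjustment over all 14711 genes. Among the receptors that can bind the peptides, 2 rose and 1 fell in the ARID1A-/- lines. VIPR2, the gene of the VPAC2 receptor for VIP and PACAP, had an RPKM of 18.1 and 8.06 in the control, 33.2 and 16.4 in line 1, 33.5 and 28.6 in line 2, with 15.4 in the ARID1A+/- library. It was higher than the control in 4 of 4 comparisons within a kit, by a log2 fold change of 1.14 ± 0.22 (edgeR adjusted p = 0.0191), and VIPR1, the other such receptor, had between 0 and 14 counts. NPY2R, the receptor for NPY and peptide YY found on nerve endings, was at 8.40 and 7.81 in the control, 17.2 and 11.3 in line 1, 20.7 and 15.4 in line 2, with 11.0 in the ARID1A+/- library, a change of 0.95 ± 0.14 (edgeR adjusted p = 0.00772). The other NPY receptor genes NPY1R and NPY5R were listed at 0 counts in all 7 libraries. The related peptide genes PYY (0.73 ± 0.29, edgeR adjusted p = 0.147) and PPY (2.55 ± 0.76, edgeR adjusted p = 0.0721) did not pass. The call of VIPR2 was lost without the control SMARTer library (1.41), without the control KAPA library (0.87) and without the kit term (1.05), and that of NPY2R without the control SMARTer library (0.72) and without the kit term (0.98). Where 1 control library was left, the spread was taken from the other groups.

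SSTR2, the main somatostatin receptor of neuroendocrine tumours, fell in both ARID1A-/- lines while its ligand gene SST was unread. Its RPKM stood at 23.2 and 17.7 in the control, 2.24 and 5.91 in line 1, 0.613 and 1.12 in line 2, with 43.0 in the ARID1A+/- library. The groups did not overlap, and the ARID1A+/- library was above the control, in the opposite direction. The log2 fold change was -3.61 ± 0.33 for both lines (edgeR adjusted p = 0.00118), and line 1 kept more than line 2 by 2.22 ± 0.42 (edgeR adjusted p = 0.0199). The fall passed the threshold under all 12 other settings, with -2.80 without the control SMARTer library and -4.34 without the control KAPA library, and the difference between the lines was lost without the SMARTer (2.03) or the KAPA library of line 2 (2.49) and without the kit term (2.25). SSTR1 and SSTR3, too low for the fit, were also lowest in the ARID1A-/- lines: SSTR1 had 121 and 31 counts in the control, 18 and 11 in line 1, 9 and 4 in line 2, with 180 in the ARID1A+/- library, and SSTR3 had 47 and 20, then 3 and 1, then 1 and 0, and 24. OPRD1, an opioid receptor that binds enkephalins, was at an RPKM of between 0.690 and 1.31 and did not pass (-0.39 ± 0.24, edgeR adjusted p = 0.344). Receptors of neuromedin U and the tachykinins had at most 8 counts in any library and those of galanin at most 14.

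Other precursor genes of peptides moved in both directions. Of 50 listed, 17 were measured, 2 rose and 2 fell, with a median log2 fold change of 0.06 beside 0.02 over all genes. CRH, the corticotropin-releasing hormone, had an RPKM of 0.895 and 0.228 in the control, 26.1 and 4.99 in line 1, 4.33 and 3.43 in line 2, with 0 in the ARID1A+/- library, and rose by 3.81 ± 0.54 (edgeR adjusted p = 0.00605). ADM, the precursor of the vasodilator adrenomedullin, rose by 1.80 ± 0.31 (edgeR adjusted p = 0.0121) and was at 0.146 RPKM in the ARID1A+/- library against 3.11 in the control KAPA library. Both stood lower in the ARID1A+/- library than in the control KAPA library, where ADCYAP1 stood higher: CRH had 0 counts against 8, at least 3.47-fold lower with the floor of 3 counts, and ADM had 7 against 110, a log2 ratio of -4.32. NMB, which encodes neuromedin B, fell by 1.72 on the log2 scale (standard error 0.26, edgeR adjusted p = 0.00756), and CALCB, the second gene of calcitonin gene-related peptide, fell by 1.30 (standard error 0.27, edgeR adjusted p = 0.0243). NTS, the neurotensin gene, had an RPKM of 16.0 and 7.49 in line 2 and at most 0.0660 in the other 5 libraries, a difference between the lines of -8.88 ± 0.60 (line 1 minus line 2, edgeR adjusted p = 0.000734). Leaving out a control library ended the calls over both lines: without SMARTer and without KAPA the values were 4.19 and 3.64 for CRH, 2.29 and 1.39 for ADM, -1.97 and -1.51 for NMB, and -1.82 and -0.80 for CALCB. Without the kit term CRH (3.69), ADM (1.73) and CALCB (-1.23) were also lost, as was CALCB without the KAPA library of line 2 (-1.17).

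Among enzymes that cut and finish peptide precursors, 10 of 15 listed genes were measured, 1 rose and 2 fell, with a median of -0.12. PCSK1N, an inhibitor of prohormone convertase 1, had an RPKM of 14.3 and 5.96 in the control, 37.5 and 13.7 in line 1, 32.7 and 13.8 in line 2, with 5.21 in the ARID1A+/- library, and rose by 1.23 ± 0.14 (edgeR adjusted p = 0.00287). FURIN, a convertase of the trans-Golgi network, changed by -0.88 ± 0.12 (edgeR adjusted p = 0.00512) and PAM, which amidates the carboxyl end of peptides such as PACAP and NPY, by -0.56 ± 0.12 (edgeR adjusted p = 0.0257). The change of PAM came from line 2, with -0.05 in line 1 and -1.07 in line 2 against control. PAM was thus lower in line 2 than in line 1 (1.02 ± 0.14, line 1 minus line 2, edgeR adjusted p = 0.00695), as was PCSK1, the convertase itself (1.85 ± 0.30, edgeR adjusted p = 0.0112). Of the neuropeptide degrading enzymes, 8 were measured, and MME, the membrane peptidase neprilysin, rose by 1.68 ± 0.36 (edgeR adjusted p = 0.0262). MME was at 1.08 in line 1, where it was not called, and at 2.29 in line 2. Without the control SMARTer library all 4 calls over both lines were lost (PCSK1N 1.17, FURIN -0.86, PAM -0.49 and MME 1.29), without the control KAPA library those of FURIN (-0.92), PAM (-0.66) and MME (2.05), and without the KAPA library of line 2 those of PAM (-0.53) and MME (1.42). Without the kit term all 4 were lost as well (PCSK1N 1.24, FURIN -0.89, PAM -0.57 and MME 1.71), and on limma's log2(RPKM + 1) and log2(RPKM + 0.1) scales that of PAM (-0.49 and -0.54). The differences between the lines were lost without the KAPA library of line 2 (PAM 0.94, PCSK1 1.50) and without the kit term (PAM 1.0, PCSK1 1.67).

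Granins and dense core vesicle proteins did not move together. Of 22 listed, 18 were measured, 3 rose and 3 fell, with a median of 0.06. CHGA, the main granin of chromaffin vesicles, had an RPKM of 115 and 79.8 in the control, 239 and 239 in line 1, 153 and 195 in line 2, with 137 in the ARID1A+/- library, and rose by 1.06 ± 0.19 (edgeR adjusted p = 0.0165). SYT1, a calcium sensor of vesicle release, was at 17.1 and 23.2 in the control, 22.4 and 18.8 in line 1 and 50.0 and 47.9 in line 2, so its change of 0.65 ± 0.16 (edgeR adjusted p = 0.0400) came from line 2, and the lines differed by -1.20 ± 0.18 (edgeR adjusted p = 0.00873). CPLX1, a regulator of vesicle fusion, fell by 0.79 on the log2 scale (standard error 0.11, edgeR adjusted p = 0.00681), further in line 1 than in line 2 (-0.78 ± 0.14, edgeR adjusted p = 0.0152). The call of CHGA was lost without the control KAPA library (0.71) and without the kit term (1.03), that of SYT1 without the control SMARTer library (0.34) and without either library of line 2 (0.62 and 0.67), and that of CPLX1 without either control library (-0.89 and -0.71). Without the kit term those of SYT1 (0.66) and CPLX1 (-0.78) were lost too. Of the differences between the lines, that of SYT1 was lost without the SMARTer library of line 2 (-1.14) and that of CPLX1 without either library of line 2 (-0.85 and -0.68) and without the kit term (-0.75).

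The pathway that PAC1 acts through was read in 3 lists. Most measured genes of the cyclic AMP pathway and of the CREB family were not past the threshold. Of the 16 measured genes that respond to cyclic AMP 8 were past it, beside 14.2% of all genes. Of 37 cyclic AMP pathway genes, 27 were measured, 3 rose and 3 fell, with a median of -0.11 beside 0.02 over all genes. ADCY1, a neuronal adenylate cyclase, had an RPKM of 10.7 and 9.20 in the control, 1.81 and 3.02 in line 1, 2.42 and 3.05 in line 2, with 8.32 in the ARID1A+/- library, and changed by -2.01 ± 0.18 (edgeR adjusted p = 0.00106), a call kept under all 12 other settings. ADCY7 changed by -0.95 ± 0.14 (edgeR adjusted p = 0.00689), by -1.56 in line 1 and by -0.34 in line 2, where it was not called. ADCY8 was at an RPKM of 1.15 and 1.11 in the control, 0.683 and 0.367 in line 1 and 3.95 and 2.95 in line 2. Its difference between the lines was -2.68 ± 0.28 (edgeR adjusted p = 0.00266). Inhibitors of protein kinase A moved apart over both lines, as PKIG fell by 1.23 on the log2 scale (standard error 0.17, edgeR adjusted p = 0.00557) and PKIB rose by 0.68 (standard error 0.13, edgeR adjusted p = 0.0189). The rise of PKIB came from line 2, with -0.18 in line 1 and 1.54 in line 2 against control. PKIG was at -0.77 in line 1, where it was not called, and at -1.70 in line 2. Without either control library the calls of ADCY7 (-1.06 and -0.86) and PKIB (0.62 and 0.71) were lost, and that of PKIG without the control SMARTer library (-1.03). The call of PKIB was also lost without the KAPA library of line 2 (0.59), and those of PKIB (0.68) and PKIG (-1.27) without the kit term.

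Of 17 genes of the CREB family and its coactivators, 16 were measured and 1 rose, with a median of 0.16. CREB3L2, a membrane-bound relative of CREB, had an RPKM of 4.52 and 5.93 in the control, 8.01 and 8.96 in line 1, 9.98 and 10.3 in line 2, with 5.48 in the ARID1A+/- library, and rose by 0.82 ± 0.11 (edgeR adjusted p = 0.00550). CREB1 itself did not pass (-0.02 ± 0.11, edgeR adjusted p = 0.943). Of 20 genes that respond to cyclic AMP, many of which also respond to serum and stress, 16 were measured, 2 rose (EGR1 and RGS2) and 6 fell (JUNB, NR4A1, PER1, SIK1, BTG2 and ID1), with a median of 0.0026. JUNB, an early response transcription factor, was at 57.2 and 28.2 in the control, 17.4 and 13.8 in line 1, 30.7 and 10.6 in line 2, with 35.0 in the ARID1A+/- library, a change of -1.25 ± 0.20 (edgeR adjusted p = 0.0102). PER1, a clock gene with cyclic AMP response elements, changed by -1.03 ± 0.18 (edgeR adjusted p = 0.0131) and SIK1, a kinase that CREB induces and that restrains its coactivators, by -0.82 ± 0.15 (edgeR adjusted p = 0.0170). Without the control SMARTer library the calls of CREB3L2 (0.66), JUNB (-1.23), PER1 (-1.14) and SIK1 (-0.93) were lost, and without the control KAPA library those of JUNB (-1.31), PER1 (-0.95) and SIK1 (-0.75), as was that of SIK1 without the KAPA library of line 2 (-0.73). Without the kit term those of JUNB (-1.28) and SIK1 (-0.81) were lost. Of the 8 calls among the response genes, 8 were lost without the control SMARTer library, 7 without the control KAPA library and 7 without the kit term.

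**Figure D5:**
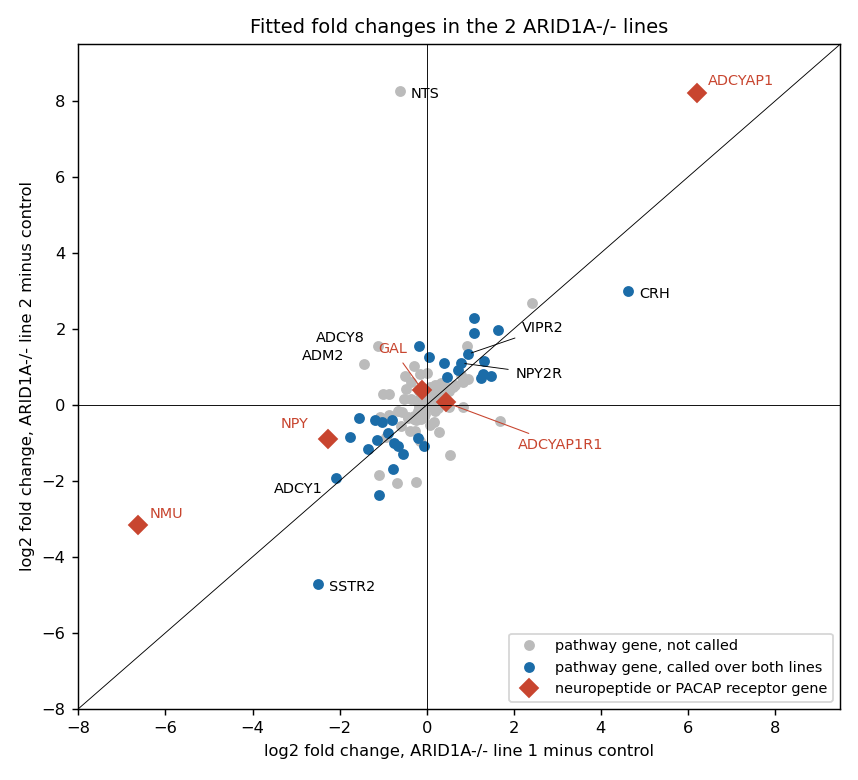
Fitted log2 fold change against control in ARID1A-/- line 1 (x axis) and line 2 (y axis) for the 5 measured genes (red diamonds) and the measured pathway genes (circles, blue where called over both lines), with the line of equal change. Both axes share the same control libraries; ADCYAP1 is at 6.21 and 8.22, NMU at -6.62 and -3.17, and NTS at -0.61 and 8.27.

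Other genes with a similar pattern of values were found by Pearson's correlation of log2(RPKM + 1) over the 7 libraries. It is given as a description, since the libraries of a line share their source and all share the kits. The correlation does not weigh the size of a change: of the genes below, AMDHD2 lay between an RPKM of 5.07 and 7.28 and NSMCE4A between 11.4 and 15.9. The pattern of ADCYAP1 was most like those of FBP1 (r = 0.962), AMDHD2 (0.954) and ANXA2R (0.952). FBP1, an enzyme of gluconeogenesis, had an RPKM of 0.447 and 0.524 in the control, 3.35 and 1.45 in line 1, 4.06 and 6.32 in line 2, with 3.40 in the ARID1A+/- library. The pattern of NMU was most like those of VCX3B (0.983), GATM (0.983) and EFHD1 (0.982), and GATM, an enzyme of creatine synthesis, went from 4.23 and 4.78 in the control to between 0.373 and 1.23 in the mutant libraries. That of NPY was most like NSMCE4A (0.972), WNK2 (0.971) and SARS2 (0.971), that of GAL like PTBLP (0.976), GMNN (0.975) and SBP1 (0.967), and that of ADCYAP1R1 like FAM213B (0.957), LHX8 (0.912) and DALRD3 (0.908).

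The nearest measured gene on each side of each of these 5 was also read, a choice made after the values were seen. Of the 10 neighbours, 8 did not pass, ENOSF1 (0.50 ± 0.18, edgeR adjusted p = 0.125) and METTL4 (0.17 ± 0.13, edgeR adjusted p = 0.425) beside ADCYAP1 among them. OSBPL3, which encodes an oxysterol-binding protein and lies beside NPY, changed by -1.13 ± 0.21 (edgeR adjusted p = 0.0180) and was also lower in the ARID1A+/- library, at -1.35, where NPY was higher. CPT1A, the carnitine transferase beside GAL, rose by 0.89 ± 0.15 (edgeR adjusted p = 0.0115), by 0.26 in line 1 and 1.53 in line 2, while GAL did not pass. The call of OSBPL3 was lost without the control KAPA library (-0.71), without the KAPA library of line 2 (-1.0), without the kit term (-1.20) and on limma's log2(RPKM + 1) and log2(RPKM + 0.1) scales (-0.67 and -1.03), and that of CPT1A without either control library (0.91 and 0.85).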

How the data were processed

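RNA of NGP cells was sequenced in 7 libraries as single-end reads of 75 bp, per the labels, which name polyadenylated RNA and also a removal of ribosomal RNA, so its selection is uncertain. Per the submitters' processing notes, HISAT2 2.1.0 and hg19 were used for alignment. The counting program, annotation and use of strand are not stated in the labels or headers. For each library the authors deposited a whole-number count and an RPKM value per named entry (28517), per the file headers, and the deposited RPKM is the count scaled by length and total.

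Kept were 14711 entries whose RPKM averaged at least 0.5 in the 6 libraries of the fit (control and both ARID1A-/- lines). After TMM scaling, edgeR 4.0.16 (R 4.3.3) fitted group and kit to the counts, with 2 residual degrees of freedom, and its quasi-likelihood F test was adjusted by Benjamini-Hochberg across the kept entries (threshold 0.05). Standard errors are the absolute log2 fold change over the square root of F. The ARID1A+/- library was not fitted. Ratios of summed counts carry exact binomial 95% intervals, with a floor of 3 counts where a library was at 0. Per the labels the kit sets the first libraries apart from the repeats, and the SMARTer minus KAPA differences of 14711 genes correlated between groups (control with line 1: 0.459, control with line 2: 0.570, the ARID1A-/- lines: 0.384). The fit was also run on simulated counts with a fixed spread, no kit difference and the same change in both ARID1A-/- lines. That run does not cover the kit and line differences described here.

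The 10 genes and the lists were chosen with earlier results of these data known. Named genes are the 10, every measured receptor of their peptides, up to 4 genes of each other list with the smallest p among those past the threshold, up to 2 more from the difference between the lines, and the 3 most alike in pattern; some of these are not printed. EGR1, RGS2, NR4A1, ID1, CREB1, PRKAR2A, the unmeasured receptors, the neighbours and the markers were named outside that rule after their values were seen. Lists of cell type markers (sympathetic and chromaffin, cholinergic, Schwann cell, fibroblast, immune and endothelial) were read the same way. Alternatives were RLE scaling, no filter, DESeq2 1.42.0, limma 3.58.1 on log2(RPKM + 1) and log2(RPKM + 0.1), no kit term, and each library left out. Promoter sequences are from RefSeq.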

Additional observations from a re-analysis of the deposited data

Results flagged for a closer look

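NPY stood out because the ARID1A+/- library and the ARID1A-/- lines lay on opposite sides of the control: its log2 ratio to the control KAPA library was 2.15 in the ARID1A+/- library, while all 4 ARID1A-/- libraries were below both control libraries. With 1 ARID1A+/- library this difference was not tested.

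The other results listed here are genes whose change differed between the 2 ARID1A-/- lines by edgeR's test of the difference itself, given as line 1 minus line 2 on the log2 scale. Line 1 was higher for the somatostatin receptor gene SSTR2 (2.22), the convertase gene PCSK1 (1.85), the amidating enzyme gene PAM (1.02) and the kinase inhibitor gene PKIG (0.93). Line 1 was lower for the peptide genes NTS (-8.88) and ADM2 (-2.53), for the vesicle genes SYT1 (-1.20), RAB3A (-0.96) and CPLX1 (-0.78), for the cyclic AMP pathway genes ADCY8 (-2.68), PKIB (-1.71), ADCY7 (-1.22) and PRKAR1A (-0.83), and for ATF3 (-1.24), BTG1 (-0.66) and ATF4 (-0.54). Without the kit term 11 of these 16 calls were lost, and leaving out a library of line 2 ended 8 with either library, and no sign changed under any of the 12 other settings.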

How the results depend on the processing

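The direction of the fitted changes of ADCYAP1, NPY and NMU was kept under all 12 alternatives. The calls of ADCYAP1 and NPY over both lines and the number of calls were not. Beside 2090 genes called for both ARID1A-/- lines, 592 were called without the replicate block (the kit term), 3147 with no filter on low values and 348 to 3570 with a library left out. For line 1 (1916) these were 475 without the block and 436 to 3028, for line 2 (2059) 519 and 408 to 3738, and between the lines (1885) 404 and 772 to 2407. Of the pathway and marker lists, 45 genes were called, 13 without the block and 9 to 60 with a library left out. In the ARID1A+/- library 1488 genes were past 2-fold and 640 on the log2(RPKM + 1) scale. On limma's log2(RPKM + 1) and log2(RPKM + 0.1) scales, which shrink low genes by construction, ADCYAP1 changed by 3.37 and 5.81 and NMU by -2.68 and -4.27. With a library left out ADCYAP1 lay between 6.08 and 8.24, ADCYAP1R1 between -0.060 and 0.48, NPY between -2.28 and -1.03, NMU between -5.24 and -4.64 and GAL between -0.23 and 0.54. Of the 25 named pathway genes called for both lines, 19 were lost without the block, 22 without the control SMARTer library and 18 without the control KAPA library, 0 with RLE scaling, DESeq2 or no filter, and 0 changed sign under any alternative. Depth limits VIP, SST, TAC1, CARTPT and PENK, which had 0 to 38 counts per library, and the control level of ADCYAP1.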

Other observations

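Markers of cholinergic sympathetic neurons, the subset in which VIP is usually found, did not follow VIP as a group. Of 6 listed, 4 were measured. GFRA2, a receptor subunit for neurturin, had an RPKM of 24.1 and 33.4 in the control libraries (SMARTer first), 83.7 and 48.4 in ARID1A-/- line 1, 86.0 and 119 in line 2, with 49.7 in the ARID1A+/- library, and rose by 1.51 ± 0.29 on the log2 scale over both ARID1A-/- lines (edgeR adjusted p = 0.020). SLC18A3, the vesicular acetylcholine transporter, was at 3.68 and 4.34 in the control, 1.71 and 0.739 in line 1, 2.30 and 1.96 in line 2, with 0.463 in the ARID1A+/- library, and changed by -1.36 ± 0.30 (edgeR adjusted p = 0.0298). The nicotinic receptor genes CHRNA3 (-0.03 ± 0.18, edgeR adjusted p = 0.946) and CHRNB4 (-0.21 ± 0.14, edgeR adjusted p = 0.348) did not pass. The call of GFRA2 was lost without either control library (1.19 and 1.83), and that of SLC18A3 without either control library (-1.85 and -0.90), without either library of line 2 (-1.32 and -1.45) and without the kit term (-1.30).

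Of the 18 sympathetic and chromaffin markers 15 were measured, 5 rose and 2 fell. SLC6A2, the noradrenaline transporter, was at an RPKM of 4.05 and 3.66 in the control, 23.2 and 39.7 in line 1, 17.1 and 17.0 in line 2, with 4.97 in the ARID1A+/- library, and rose by 2.55 ± 0.21 (edgeR adjusted p = 0.000767). Of 8 Schwann cell markers 2 were measured. NGFR, a neurotrophin receptor, changed by -5.09 ± 0.34 (edgeR adjusted p = 0.00039). PMP22, a myelin protein gene and the most abundant of the list, was at an RPKM of 66.2 and 43.8 in the control, 252 and 182 in line 1, 9.93 and 8.67 in line 2, with 34.9 in the ARID1A+/- library, and did not pass over both lines (-0.29 ± 0.12, edgeR adjusted p = 0.175). Against control it rose by 2.00 ± 0.15 in line 1 (edgeR adjusted p = 0.000751) and fell by 2.57 in line 2 (standard error 0.15, edgeR adjusted p = 0.000405). Of 9 fibroblast markers 7 were measured, 3 rose (COL3A1, DCN and LUM) and 1 fell (PDGFRB). DCN, the proteoglycan decorin, rose by 4.38 ± 0.52 (edgeR adjusted p = 0.00305) from an RPKM of 0.301 and 0.0326 in the control. COL1A1, a collagen gene, was called higher in line 1 and lower in line 2. Its RPKM was 60.2 and 62.6 in the control, 156 and 171 in line 1, and 30.3 and 19.9 in line 2. Of 8 immune and endothelial markers 2 were measured and 0 passed edgeR's test. These genes were named after their values were seen.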
